A study of Rattus norvegicus with 8 samples.

Results

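The hippocampus DNA methylome was described from 4 of the 8 libraries of the series, on the positions that these 4 libraries share. Members were chosen by position alone: cytosines of chromosomes 1 to 20 listed in every hippocampus library, whether or not the hypothalamus libraries list them. Of 11858206 autosomal cytosines listed in at least 1 hippocampus library, 9445461 (79.7%) were listed in all 4. Among these, 1280191 stood before a G (CG context), 2225765 in CHG and 5939501 in CHH context, where H is A, C or T. CG cytosines of both strands were joined into CpG dyads, the C of one strand and the C opposite the neighbouring G, which gave 1109900 dyads. Of these, 759156 were also listed in all 4 hypothalamus libraries and 350744 (31.6%) were not.

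The animals were male Sprague Dawley rats, 2 months old at the start of a 6-week feeding with DHA (docosahexaenoic acid, of the omega-3 class). Each library was made from dissected hippocampus, and all 4 came from DHA-fed animals; the treatment note in the labels names fructose and/or DHA, and which animals had fructose is not stated there. The study design also has a chow group, which was not analysed here, so the data hold no diet comparison. The labels do not say whether the 4 libraries came from 4 separate animals, so the spread between libraries may be partly technical. Hippocampus is a mixture of neurons, glia and vessel cells, and in such bulk DNA a middle level can come from a mixture of cells, of alleles or of molecules, which cannot be told apart. The files hold methylation and no expression, so the tissue label was not checked against marker genes.

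In mammals, DNA methyltransferases add a methyl group to the cytosine of most CpG dinucleotides, while CpG islands, the CpG-rich stretches that cover many promoters, are usually kept free of it. Promoters of some germline genes are an exception, methylated in body cells although they may be rich in CpG, and imprinted genes carry a methylated and an unmethylated parental copy. Mature neurons also methylate cytosines outside CpG, mostly before an A, through DNMT3A.

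The assay was RRBS, reduced representation bisulfite sequencing. The enzyme MspI cuts at CCGG, fragments of 150 to 300 bases are kept, and bisulfite treatment makes a cytosine without a methyl group read as T, so that a level is the share of calls still read as C. The enzyme samples CpG-rich DNA preferentially, so shares of dyads below are shares of the sampled dyads and not of the genome. The 4 libraries listed between 10469873 and 11007045 autosomal cytosines with 501261537 to 615643797 calls, a median of 42 to 49 calls per cytosine, and no listed cytosine had fewer than 10. Libraries 3 and 4 (hippocampus 3 and hippocampus 4) stood apart from libraries 1 and 2 by a small upward offset that was also present outside CpG: cytosines before a C, which neurons methylate little, read 0.382%, 0.343%, 1.78% and 1.88% methylated in libraries 1 to 4. Main results are therefore given per library, a mean of a few percent over the 4 libraries carries this offset, and the part of incomplete bisulfite conversion in this offset was not tested.

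The following promoter sequences show what a measured promoter looks like at the extremes of the methylome. Dazl and Sycp3 act in germ cells and were highly methylated, Peg10 is an imprinted gene and was at a middle level, and Slc1a2 encodes the main glutamate transporter of astrocytes and was low at each of its 39 CpGs. Each is the RefSeq sequence (build GRCr8) from 250 bases before to 50 bases after the transcription start, 5′ to 3′, with the CpGs measured in all 4 libraries in capitals. Their places on the deposited positions (build rn5), found by matching the pattern of cytosines and contexts, are chr9:11574776-11575075 for Dazl, chr7:29136565-29136864 for Sycp3, chr4:29703858-29704157 for Peg10 and chr3:99167861-99168160 for Slc1a2, all on the plus strand.
Dazl: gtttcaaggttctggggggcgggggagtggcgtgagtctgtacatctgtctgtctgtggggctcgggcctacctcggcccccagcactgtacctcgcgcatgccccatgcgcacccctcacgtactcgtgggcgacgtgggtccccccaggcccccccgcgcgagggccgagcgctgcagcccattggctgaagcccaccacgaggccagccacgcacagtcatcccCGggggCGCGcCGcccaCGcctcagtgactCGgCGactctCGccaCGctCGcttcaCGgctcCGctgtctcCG
Sycp3: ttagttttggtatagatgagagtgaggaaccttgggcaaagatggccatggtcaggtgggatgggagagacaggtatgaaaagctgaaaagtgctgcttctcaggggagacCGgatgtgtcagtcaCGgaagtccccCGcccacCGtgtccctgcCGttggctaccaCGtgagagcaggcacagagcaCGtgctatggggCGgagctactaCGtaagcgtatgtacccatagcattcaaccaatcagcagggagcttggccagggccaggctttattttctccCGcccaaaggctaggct
Peg10: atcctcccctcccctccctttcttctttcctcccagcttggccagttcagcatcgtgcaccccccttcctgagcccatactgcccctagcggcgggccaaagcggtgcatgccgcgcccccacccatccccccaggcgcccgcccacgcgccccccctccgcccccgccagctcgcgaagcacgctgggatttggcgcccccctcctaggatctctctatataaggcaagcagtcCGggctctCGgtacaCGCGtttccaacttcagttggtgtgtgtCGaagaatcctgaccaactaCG
Slc1a2: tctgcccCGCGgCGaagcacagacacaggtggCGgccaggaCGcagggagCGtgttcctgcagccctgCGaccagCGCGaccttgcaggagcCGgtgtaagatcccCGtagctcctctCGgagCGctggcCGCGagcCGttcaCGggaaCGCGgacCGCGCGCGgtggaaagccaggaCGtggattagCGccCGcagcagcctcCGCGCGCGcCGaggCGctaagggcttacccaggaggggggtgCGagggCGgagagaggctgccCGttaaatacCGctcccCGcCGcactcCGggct

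In Dazl, an RNA-binding regulator of germ cells, 13 of 31 CpGs were measured, and their mean levels over the 4 libraries ran from 94.9% to 100%. In Sycp3, a protein of the meiotic chromosome axis, 10 of 11 were measured and ran from 56.7% to 100%, the lowest lying among neighbours at 82.1% and 84.6%. In Peg10, derived from a retrotransposon and active from the paternal copy, 6 of 22 were measured and lay within 40.2% to 42.1%. In Slc1a2 the range was 0% to 3.70%. The dyads of Dazl rested on 10 to 28 calls per library, and measured CpGs of one promoter share reads, so they are not independent of each other.

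Methylation fell as the local density of measured CpGs rose. Density was counted as dyads in fixed tiles of 1000 bases; the 179256 tiles with a dyad held a median of 4 and at most 113. Tiles with 1 dyad had a mean level of 75.1% ± 0.587 (SD, n = 4 libraries), and tiles with 2 to 3 dyads 75.2% ± 0.674. The level was 71.6% ± 0.827 at 4 to 7 dyads, 56.2% ± 1.04 at 8 to 15, 19.3% ± 1.24 at 16 to 31 and 4.01% ± 1.25 at 32 or more. The mean passed below 50% between 12 and 13 dyads per tile, from 51.6% to 48.0%. Neighbouring density classes were farther apart than the spread between libraries, except the 2 sparsest, which differed by less than their SDs.

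In CpG-sparse tiles (at most 3 dyads, 156802 dyads) the mean was 75.2%, and in CpG-dense tiles (at least 16, 347568 dyads) 12.7% ± 1.24. The sparse minus dense difference was 63.4, 62.8, 61.8 and 62.0 percentage points in libraries 1 to 4, a mean of 62.5 ± 0.764 (SD, n = 4), positive in 4 of 4 libraries. By the two-sided exact sign-flip permutation test p was 0.12, which is the smallest value 4 libraries allow, and the same after Benjamini-Hochberg adjustment over the 3 such tests made; the design cannot reach 0.05. In the densest tiles the libraries were at 3.02%, 2.84%, 5.05% and 5.14%, so libraries 3 and 4 read higher than libraries 1 and 2 without overlap.

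**Figure D1:**
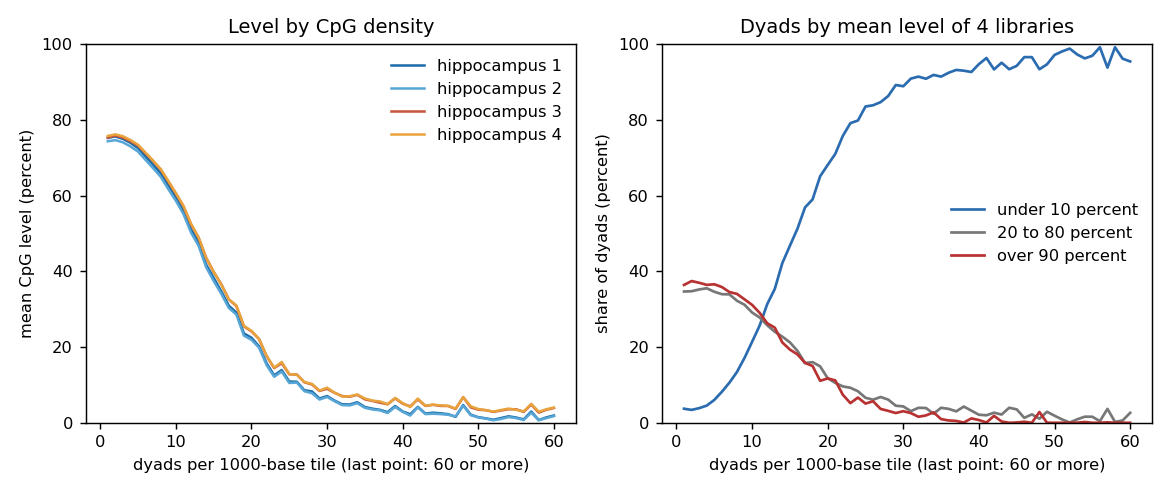
Mean CpG methylation (percent) in each hippocampus library against the number of measured dyads in the 1000-base tile, and the share of dyads (percent) under 10%, at 20% to 80% and over 90% mean level, against the same density. The level stays near 75% up to 3 dyads per tile and is 4.01% on average at 32 or more.

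The distribution over dyads had a peak at each end. Over all 1109900 dyads the library means were 49.4%, 48.7%, 50.5% and 50.7%, the median dyad was at 60.9%, and 34.7% of dyads lay under 10%, 24.8% above 90% and 24.4% from 20% to 80%. CpG-dense tiles were mostly unmethylated, with 82.1% of dyads under 10%, against 3.69% of dyads in sparse tiles. Sparse tiles held more dyads at a middle level, 35.0% of theirs. Chromosome means ran from 44.5% on chromosome 10 to 55.1% on chromosome 13. The level in sparse tiles was within 72.4% to 77.5% on every autosome, and the level in dense tiles ran from 9.93% on chromosome 6 to 20.8% on chromosome 12.

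Neighbouring CpGs had similar levels over short distances. Over pairs of dyads 2 to 10 bases apart (414403 pairs), the correlation of levels within a library was 0.970 to 0.971. It was 0.943 to 0.946 from 51 to 200 bases, 0.844 to 0.850 beyond that up to 1000, 0.307 to 0.313 beyond 1000 up to 5000, and 0.0550 to 0.0566 beyond 5000 up to 20000 bases. These are descriptions over pairs that share reads, tiles and density, not tests. Each dyad was paired only with a fixed number of next measured dyads, so the longer distances leave out pairs in CpG-dense stretches. The part of this limit in the fall with distance was not tested. Abrupt steps were rare: of 977468 neighbouring dyads at most 1000 bases apart, 5215 (0.534%) went from under 20% to over 80% or back, with a median distance of 39 bases.

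Unmethylated CpGs were gathered in runs. Of 385256 dyads under 10%, 338098 (87.8%) lay in the 11661 runs of at least 10 consecutive dyads under 10% with neighbours at most 500 bases apart. No like count was made for dyads at other levels. Measured dyads lie close together in general, with a median distance of neighbours of 19 bases, and the part of this closeness in the runs was not tested. The run with most dyads, 169 over 2658 bases, was chr3:126602313-126604970 at 1.41% ± 1.09, and it contains the promoter placed for Bcl2l11, which encodes the apoptosis protein BIM. The next, chr1:129983555-129986302 with 163 dyads, was at 1.402% ± 1.20 and contains the promoter placed for Igf1r, the receptor of insulin-like growth factor 1. Libraries 3 and 4 read higher than libraries 1 and 2 in each of the 5 runs, with 0.559%, 0.380%, 2.25% and 2.46% in the run with most dyads. Runs at chr3:66455010-66456665 (154 dyads), chr19:26919294-26921869 (148) and chr6:108812092-108814092 (145) had means of 2.39%, 2.85% and 1.41%, and no promoter was placed in them.

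Promoter methylation was read from 6073 genes. Of 33469 RefSeq promoter sequences of 300 bases, 7235 could be placed at a single position by their pattern of cytosines, and 7053 of these (97.5%) fell on the chromosome RefSeq gives; the other 182 were left out. At least 3 dyads were required, which 6716 placed promoters had, and 1 promoter was kept per gene. The one kept was that with most measured dyads. Other promoters of the same gene may differ in level and are not shown. The MspI site CCGG, which reads the same on both strands, is in 7042 (99.8%) of the placed promoters and in 51.4% of all promoter sequences of this length, so the placed promoters are those that RRBS could sample and not a random draw. Over the 6073 promoters the median level was 1.59%; 5314 were under 10% (87.5%), 286 from 10% to under 50%, and 473 at 50% or more (7.79%).

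Promoters with few CpGs were mostly methylated and promoters with many were not. A level needed at least 3 measured dyads, so promoters with fewer CpGs than that have none and are not included. With 3 or 4 CpGs in the 300 bases (58 promoters) the mean was 68.0% ± 0.576 (SD, n = 4 libraries). With 5 to 9 (484 promoters) it was 47.6% ± 1.02. It was 20.6% ± 1.20 at 10 to 14, 6.38% ± 1.26 at 15 to 19, 2.34% ± 1.26 at 20 to 29 and 1.73% ± 1.21 at 30 or more. Of 3921 promoters with at least 20 CpGs, 15 (0.383%) were at 50% or more, and of 542 with fewer than 10, 124 (22.9%) were under 10%.

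**Figure D2:**
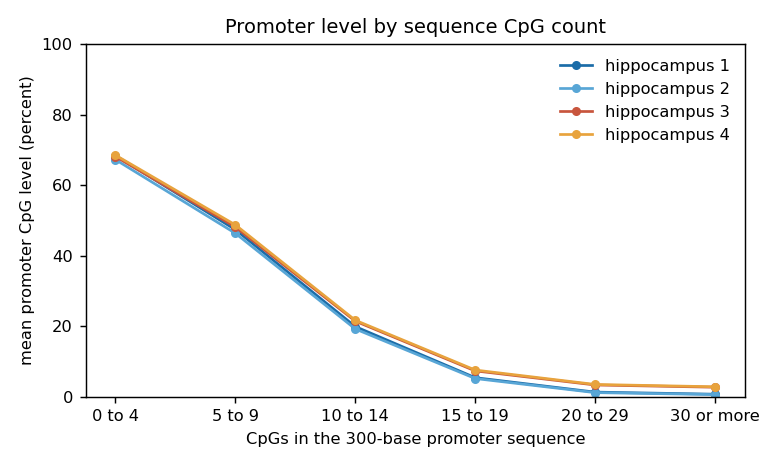
Mean promoter methylation (percent) in each hippocampus library, 1 line per library, against the number of CpGs in the 300-base RefSeq promoter. The mean of the libraries falls from 68.0% in the class of 0 to 4 CpGs to 1.73% at 30 or more. A level needed at least 3 measured dyads, so the class of 0 to 4 holds only promoters with 3 or 4 CpGs.

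Of the 10 CpG-rich protein-coding promoters with the highest levels, Dazl led with 98.5%, 96.6%, 97.7% and 98.9% in libraries 1 to 4. Ddx4, the germ-cell RNA helicase also known as Vasa, read 92.4%, 89.6%, 94.1% and 94.0% at 14 dyads. Tdrd1, Mael and Piwil1, which act in the piRNA pathway that silences transposons, were at 87.3%, 78.2% and 72.2% on average, Terb1, which ties meiotic telomeres to the nuclear envelope, at 89.95%, and Spaca1, a protein of the sperm acrosome, at 90.4%. Ube2d2b, a ubiquitin-conjugating enzyme, was at 95.2% and Btbd18 at 91.8%. All 10 were picked for their level, so their position at the top is a description. Psmc3, a proteasome subunit, completed the 10 highest at 64.3% ± 8.11, from 3 dyads and with 28 of 29 cytosines of its pattern matching. Its placement was checked by chromosome only, so its place within the chromosome is uncertain.

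The germline and meiosis list, a list drawn up with earlier results of these data known, was highly methylated throughout its measured members. Of 46 genes, 39 were in the promoter table, 12 were placed and 10 had a level, and these 10 were at 50% or more, against 7.79% of all promoters. Their median was 91.0%, from 72.2% for Piwil1 to 97.9% for Dazl, against 1.59% for all promoters. Sycp3 was at 88.2%, 88.5%, 89.6% and 91.8%, and Sycp1, of the synaptonemal complex, at 91.9%, 93.4%, 96.9% and 91.4%.

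Measured promoters of imprinted genes were under 10% less often than all promoters, a difference that was not tested. Of 38 genes, 16 had a level, with a median of 2.90% against 1.59% for all promoters. Of these 16, 10 were under 10%, 6 from 10% to under 50% and 0 at 50% or more. All 6073 promoters had 5314 (87.5%), 286 and 473 (7.79%). Peg10 was highest at 39.0%, 49.0%, 38.5% and 37.6%, library 2 lying above the others. Plagl1, a zinc-finger regulator of growth, read 29.3%, 37.6%, 39.0% and 30.5%, a mean of 34.1% ± 4.94. Mkrn3 (19.1%, from 3 of 15 CpGs), Ndn (15.4%), Slc22a18 (13.03%) and Igf2r (10.2%) were lower, and Gnas, Dlk1 and Ube3a were at 1.55%, 1.93% and 1.53%. Igf2r read 7.01%, 9.22%, 15.1% and 9.59%, so only library 3 was above 10%. Igf2, at 7.35%, was also highest in library 3 (13.2%). Whether a measured promoter overlaps an imprinting control region was not tested.

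Promoters of neurons and glia were read at few genes. The 7 neuronal genes with a level were all under 10%. Tubb3 (neuronal tubulin) was at 1.11%, Bdnf, a growth factor of neurons, at 2.08% and Neurod2 (a transcription factor of excitatory neurons) at 5.94%. Under 10% is the common case (87.5% of all promoters), so the neuronal count is near the background. Of the 4 glial and vessel genes with a level, 2 were under 10%, 1 from 10% to under 50% and 1 at 50% or more. Slc1a2 was at 0.571%, 0.585%, 2.00% and 2.597%, while Mbp, a myelin protein of oligodendrocytes, was at 60.3%, 55.2%, 54.7% and 52.5%. The Mbp level rested on 3 of 13 CpGs, and that of Slc1a2 on 39 of 39. S100b, a calcium-binding protein of astrocytes, was at 8.58%, and Cspg4, a proteoglycan of oligodendrocyte precursors and pericytes, at 11.8%. Of a list meant for genes of organs outside the brain, 2 had a level: muscle creatine kinase (Ckm) at 54.4% ± 9.27 and Pomc at 6.41%. Pomc, a hormone precursor of the pituitary, is also expressed in hypothalamic neurons, so the name of that list does not hold for it. With 4 and 2 genes these lists are too short to be read against all promoters.

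In the remaining lists most promoters were under 10%, as among all promoters. All 19 housekeeping promoters with a level were under 10%, with means within 1.07% to 3.07%. Their mean was 0.487%, 0.355%, 2.37% and 2.67% in libraries 1 to 4, so these low means are set largely by libraries 3 and 4, and levels of this size are not ranked here. All 14 promoters of genes that handle omega-3 fatty acids were as well, among them the desaturases Fads1 (1.69%) and Fads2 (1.38%), the elongase Elovl5 (1.33%) and the nuclear receptors Ppara (1.73%) and Pparg (5.64%), with list means of 1.23%, 1.02%, 3.08% and 2.83% in libraries 1 to 4. Of 13 genes of the methylation machinery, 12 were under 10%, Dnmt3a at 5.85% and the Tet enzymes Tet1, Tet2 and Tet3 at 1.96%, 1.36% and 1.36%, and Uhrf1, which guides maintenance methylation, was at 17.2%. Tet3 read 0.169%, 0.124%, 2.61% and 2.55%, so libraries 3 and 4 stood above libraries 1 and 2 there too. Of 38 genes with a level on the list named patterning transcription factors, 36 were under 10%, with Lhx3 at 21.8% and Sox30 at 30.9%. The name of that list need not hold for each member, Sox30 among them. No olfactory receptor promoter among 1084 was placed, so that family was not measured.

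**Figure D3:**
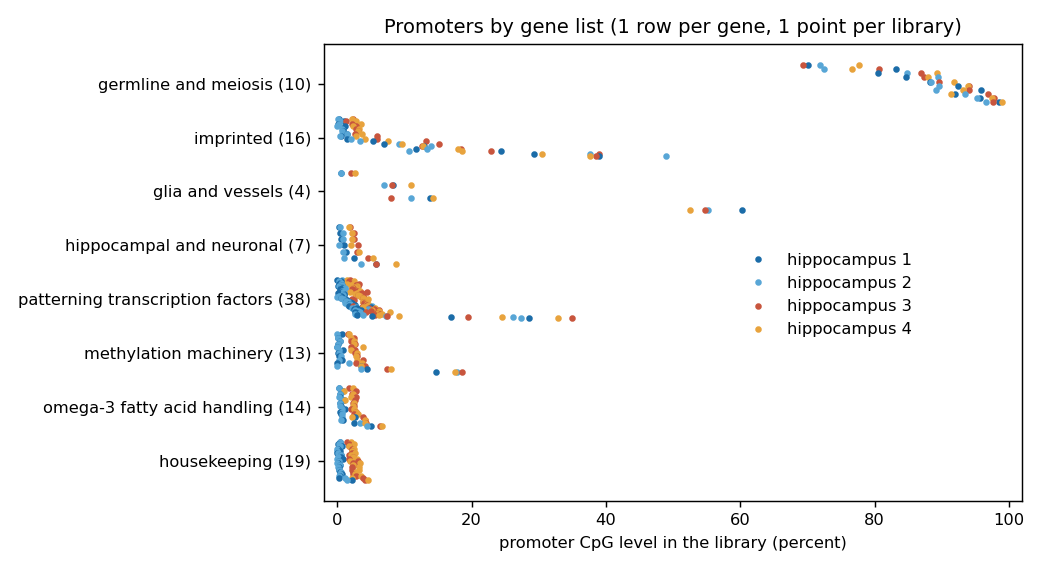
Promoter methylation (percent) by gene list, 1 row per gene and 1 point per library, with the number of genes in brackets. The means of the 10 germline promoters sit between 72.2% and 97.9%, and those of the 19 housekeeping promoters between 1.07% and 3.07%.

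Replicate libraries were close to each other, and the spread depended on the level. The correlation between pairs of libraries was 0.978 to 0.982 over all dyads and 0.750 to 0.791 over dyads of middle level (20% to 80%), as descriptions over dyads. Spread beyond counting error was the variance between the 4 libraries minus that expected from the number of calls, as an SD in percentage points. It was 5.62 at dyads of middle level, where the observed SD was 9.27 and counting error 7.38. It was 1.47 at dyads under 10% and 1.07 at dyads above 90%. At the middle the pair with least extra spread was libraries 1 and 4 (5.13) and the pair with most libraries 2 and 3 (6.35). Under 10% the pairs 1 with 2 and 3 with 4 were at 0.570 and 0.633 and the other 4 pairs at 1.67 to 1.82, so the low dyads carry the offset of libraries 3 and 4.

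With the level held to 20% to 80%, the extra spread was lower at both ends of the density range than in between. The extra SD was 4.36, 5.30, 5.74, 5.86, 5.37 and 4.60 from the sparsest to the densest class, and 5.18 in sparse against 5.25 in dense tiles. That difference, -0.0758, had no test, and its sign changed with library 2 left out (0.0888) and with only dyads read on both strands (0.770).

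**Figure D4:**
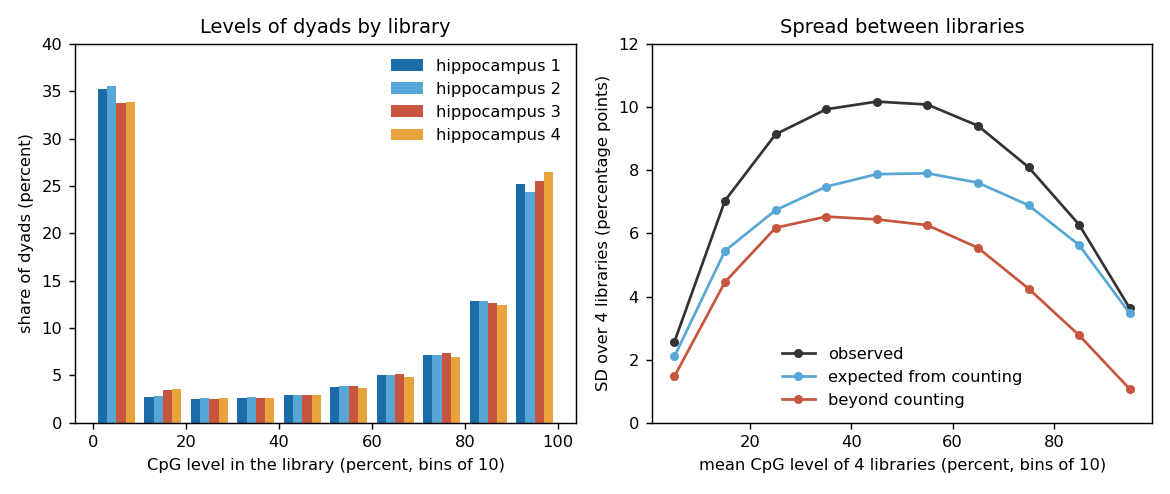
Share of dyads (percent) by level in each library in bins of 10 points, and the SD over the 4 libraries (percentage points) against the mean level, as observed, expected from counting and beyond counting. The SD beyond counting is highest in the middle and is 1.47 under 10% and 1.07 above 90%.

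Deviations of a library from the mean were shared by nearby dyads. Between middle-level dyads the correlation of deviations was 0.563 at 2 to 10 bases (34580 pairs), 0.462 at 11 to 50, 0.225 at 51 to 200, 0.0852 beyond that up to 1000 and 0.0217 beyond 1000 up to 5000 bases. Pairs close by lie on the same reads, and the part of shared molecules in this was not tested. As above, only a fixed number of next middle-level dyads was paired, so the longer distances leave out pairs in dense stretches. The plus and minus strands of a dyad differed by -0.0191 to 0.0142 points on average over 170291 dyads read on both, a signed mean in which opposite differences cancel. The mean absolute difference was 4.001 to 4.851 points, and the root mean square difference was 7.03 to 7.58 against 5.85 to 6.54 from counting.

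A wide range between libraries, at least 30 points among the 4 levels with at least 20 calls in each, was found at 13838 of 922358 dyads (1.5%). The share depended on which dyads were counted: it was 0.891% with at least 40 calls in each library, and 0.733% over dyads read on both strands. Dyads read on both strands are another mix, with library means of 37.4% to 39.5% against 50.7% to 52.7% for the rest. They made up 0.368% of dyads in tiles of 1 dyad and 23.3% at 32 or more. Among the middle-level dyads the share was 5.45%, with 3.82% in tiles of 1 dyad, 5.84% in tiles of 8 to 15 and 4.04% at 32 or more. In 44.5% of wide dyads the largest gap set 1 library below the other 3, in 32.4% 1 above, and in 23.1% it split them 2 and 2. The lone library was library 1 in 2497, library 2 in 3089, library 3 in 3053 and library 4 in 1999 dyads. At 857 dyads the range was at least 80 points, and at 1714 (12.4% of wide dyads) all 4 levels lay at or under 10%, at 40% to 60%, or at or above 90%. Of neighbours within 50 bases of a wide dyad 1325 of 8280 were wide themselves.

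Whole tiles rarely differed. The level of a single tile here pools the calls of all its dyads. Of 76516 tiles with at least 5 dyads and 100 calls in every library, 82 had a range of 30 points or more, and the median range was 4.26. The widest, chr4:177335001-177336000 with 26 dyads, read 64.6%, 88.2%, 64.6% and 36.4%. The next were chr7:64980001-64981000 at 42.8%, 50.6%, 22.8% and 70.0% and chr9:13343001-13344000 at 35.9%, 36.4%, 63.3% and 16.8%. At the other end, chr3:170484001-170485000 (16 dyads) was at 51.8% ± 0.367, chr6:145685001-145686000 (12 dyads) at 41.6% ± 0.413 and chr4:207683001-207684000 (12 dyads) at 49.8% ± 0.490. The promoter placed for Cav3, which encodes the muscle caveolin, overlaps the last in part. The mean of that promoter, unweighted over its dyads, was 35.7%. Over the 1466 tiles of at least 10 dyads at 40% to 60%, the median SD was 3.96.

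At the scale of 1000000 bases, levels in tiles of 1 to 7 dyads had a median of 73.2% over 1607 blocks, with 5th and 95th percentiles of 62.7% and 81.4%. The SD between blocks was 5.72, against a median SD between libraries of 0.919. The lowest block, chr7:142000001-143000000, read 40.6%, 40.1%, 42.9% and 42.5%. The placed promoters of Atp5mc2 and Copz1 lie in it; in the RefSeq gene order 9 Hoxc genes, homeobox genes that pattern the body axis, are among the 15 protein-coding genes between them. The next lowest, chr17:45000001-46000000, was at 43.5% ± 1.21 and holds the promoters placed for the linker histones H1f1 and H1f2; between H1f1 and Abt1 in the RefSeq order 17 of 24 protein-coding genes are histone genes. The third lowest, chr8:98000001-99000000, was at 50.7% ± 0.960, and no promoter was placed in it. The highest blocks were chr20:38000001-39000000 at 89.4% ± 0.777, chr16:51000001-52000000 at 87.6% ± 0.375 and chr10:99000001-100000000 at 87.5% ± 0.428. The block level leaves out tiles of more than 7 dyads, so promoters in such tiles do not enter it. Promoters in a block need not share its level: Kcnj2, a potassium channel gene placed in the chromosome 10 block, was at 1.68%, and LOC102547836 in the lowest block, on chromosome 7, at 88.0%.

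Positions the hypothalamus libraries do not all list had a like landscape. Their 350744 dyads had a mean level of 51.3% ± 0.944, against 49.2% ± 0.980 for the others, and fewer calls, a median of 27 per library against 71. In tiles of 1 dyad the levels were 75.1% in both sets, and at 32 or more 4.45% and 3.82%. The extra spread at middle level was 6.02 against 5.42. No tissue was compared.

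Outside CpG, cytosines before an A were more methylated than those before a C. CA cytosines read 1.86%, 1.56%, 4.30% and 4.58% in libraries 1 to 4, and CC cytosines the values given above. CA minus CC was 1.48, 1.21, 2.52 and 2.70 points, a mean of 1.98 ± 0.740 (SD, n = 4), positive in 4 of 4 libraries. The two-sided exact sign-flip permutation test gave p = 0.12, the smallest it can give, and the same after adjustment over the 3 tests. Libraries 3 and 4 kept a larger CA minus CC difference than libraries 1 and 2 in every density class, 1.53 and 1.62 against 0.161 and 0.0659 at 32 or more dyads. Subtracting CC therefore did not make the libraries alike, and the part of the offset in what remained was not tested.

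Non-CpG methylation followed the density of CpGs as well. CA minus CC was 1.31, 1.11, 0.983 and 1.06 points higher in sparse than in dense tiles, a mean of 1.12 ± 0.137 (SD, n = 4); by the same exact permutation test p was 0.12, also after adjustment. Here libraries 3 and 4 were not above libraries 1 and 2. By the CpG level of the tile, CA minus CC was 0.127, 0.0379, 1.5 and 1.59 in tiles under 10% and 1.81, 1.49, 2.79 and 2.97 in tiles from 50% to under 80%. Above that it was flat, with means of 2.26, 2.28 and 2.27 from 50% to under 80%, from 80% to under 90% and from 90% upward. Within dense tiles the mean was 0.806 under 10%, 1.32 from 10% to under 50% and 2.12 from 50% to under 80%, and then lower, 2.04 and 1.78 in the upper classes, in 4 of 4 libraries. Within sparse tiles the means from the lowest to the highest class were 0.891, 1.75, 2.26, 2.31 and 2.31. These values have no test. Over all tiles, CA in CHH context was above CA in CHG context by 0.737 ± 0.0682 points (SD, n = 4). The difference was 0.133 ± 0.106 at 32 or more dyads. In tiles with no measured dyad it had the opposite sign in 4 of 4 libraries, -0.682, -0.469, -0.258 and -0.310. Those tiles held only 2111 CA cytosines in CHG and 3657 in CHH context, the same positions in every library. Their 24 CC cytosines in CHG context read 50.8%, against 1.30% over all tiles, so these positions are unusual.

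**Figure D5:**
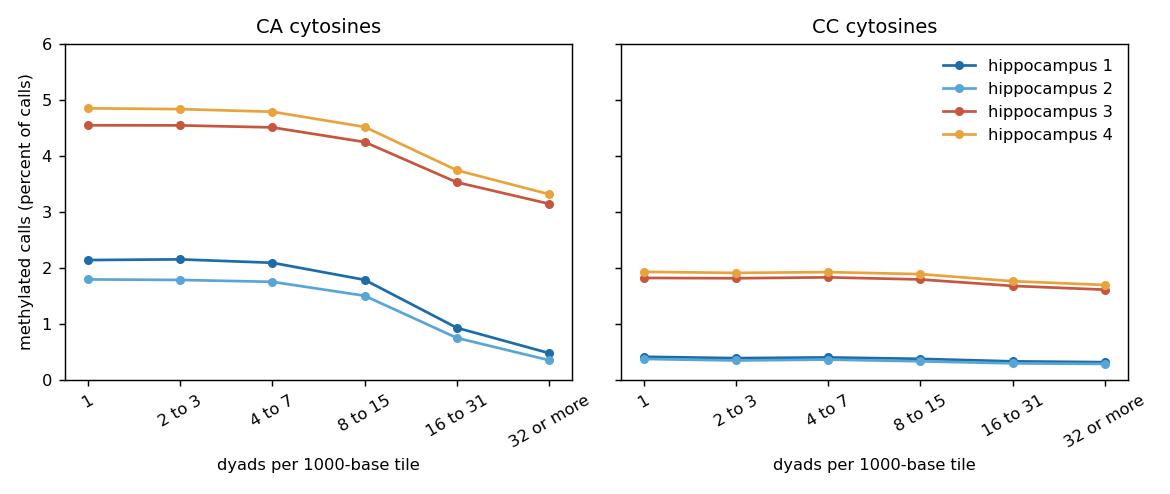
Methylated calls (percent of calls) at CA cytosines and at CC cytosines in each hippocampus library, 1 line per library, by dyads per tile. CA lies above CC in each library, and libraries 3 and 4 lie above libraries 1 and 2 in both contexts.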

How the data were processed

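For each library the authors deposited, per cytosine, the methylated-call count, the all-call count and their fraction, with strand and context. Per the submitters' processing notes the build was rn5 and Bowtie was used; its role and version, trimming and duplicate handling were not given in the sources used here. Every listed cytosine has at least 10 calls, a floor already in the deposited counts. The deposited fraction equals the ratio of the counts and was not used for tests. Intervals cover counting error only.

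CpG levels were methylated over all calls per dyad, averaged unweighted over dyads within a library, then over the 4 libraries. Levels of single tiles, used for tile ranges and named tiles, instead pooled the calls of all dyads of the tile. Non-CpG levels pooled the calls of all cytosines of a context. Extra spread was the observed variance minus the mean of p(1-p)/(n-1). p-values came from two-sided exact sign-flip permutation tests over 4 libraries, adjusted by Benjamini-Hochberg over 3 tests. With 4 libraries, p takes its smallest value whenever all 4 differences share a sign. It therefore does not measure the size of the spread between libraries, which may be technical. The estimate of extra spread was tested on simulated middle-level dyads with a known spread between libraries, and the other steps had no such test. Regions were named by a rule: the 3 lowest and 3 highest blocks, the 5 runs with most dyads, the 3 widest and 3 steadiest tiles. Promoters were placed with a seed of 14 cytosines, at least 20 compared and 95% matching; genes named through them, the gene lists and the promoter rule (the 10 highest CpG-rich, 10 lowest CpG-poor and 8 of widest range with at least 20 calls; protein-coding) were chosen after the design was written. Members and lists were chosen with earlier results of these data known. Left-out libraries, depth, strands, density, weighting, CC correction, position sets and thinning were varied. Python 3.11.15, numpy 2.4.6, scipy 1.17.1, pandas 2.3.3 and matplotlib 3.10.9 were used. Sequences are from RefSeq, GRCr8.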

Additional observations from a re-analysis of the deposited data

Results flagged for a closer look

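The promoter placed for Peg10 has a library far from the others: library 2 was at 49.0% and the other 3 between 37.6% and 39.0%. Of 79 groups of 4 libraries tested in this way, 1 passed the limit for a far value; about 1 in 20 groups does so by chance, 3.95 of 79.

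Cytosines whose context was not defined were outside the main measurement. Methylated calls were 0 of 116 in library 1, which allows up to 2.59%, 1 of 160 (0.625%) in library 2 and 3 of 136 (2.21%) in library 3. In library 4, 4 of 173 calls at 4 such positions were methylated, 2.31% with a 95% Wilson interval from 0.903% to 5.79%. The limit set by 3 counts of the total, which is what no methylated call would allow, is 1.73%. In the same library cytosines before a C read 1.88%, which is also above that limit and lies within the interval.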

How the results depend on the processing

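The sparse minus dense difference in extra spread changed sign under several settings (values below), and no other difference did under the alternatives run. The sparse minus dense level was 62.2 to 62.8 without each library in turn and 60.7 to 65.2 under the other settings, and CA minus CC was 1.74 to 2.23, and its sparse minus dense difference 1.05 to 1.16, without each library; with 3 libraries the smallest exact permutation p is 0.25. The share of dyads at middle level (24.4%) was 23.9% with at least 20 calls, 20.6% on both strands and 26.0% thinned to 10 calls, and 24.2% to 24.6% without each library. The extra spread (5.62) was 5.11 on both strands and 5.42 to 5.87 without each library. Its sparse minus dense difference (-0.0758) was 0.770 on both strands, -0.761 with density from dyads of at least 1 library, and -0.200 to 0.0888 without each library, so its sign is not settled. With each library centred, chosen after seeing the data, it was 0.146 and the extra spread 5.44. The count of wide dyads (13838) was 5658 of 635105 (0.891%) with at least 40 calls, 1248 of 170291 (0.733%) on both strands, 2744 at a range of 50 points, and 9281 to 10478 without each library, which counts the range over 3 libraries. The cause of these moves was not tested, beyond the fewer dyads that each stricter setting counts. No paired analysis was possible between groups because the only group used is hippocampus, and no groups were compared. The sign-flip tests used differences taken within each library. Depth limits single dyads: at middle level the counting error (7.38) exceeded the extra spread.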

Other observations

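Some CpG-poor promoters were unmethylated. The 124 promoters with fewer than 10 CpGs that were under 10% included those of Nqo1, a quinone reductase, at 1.05% ± 0.840, and Hist3h2ba, a histone, at 1.06% ± 1.61. Lmna, the nuclear lamin, had 5 CpGs in its 300 bases and was at 0%, 0%, 2.93% and 1.73%. Sp3, a transcription factor of GC boxes, was at 1.38% ± 1.09. These promoters were chosen for their low mean level, and levels of this size are not ranked here.

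Among promoters with at least 20 calls in every library, the widest ranges between libraries were mostly at middle levels. Mamdc4 read 40.6%, 33.6%, 61.6% and 51.9%, and Ubash3a, a regulator of T-cell signalling, 40.1%, 35.0%, 38.2% and 57.2%. Hapln2, a matrix protein of myelinated nodes, read 71.3%, 62.2%, 56.8% and 53.6%. Over all 6073 promoters the median range was 2.72 points, and 4 had a range of at least 30: Pou5f2, Amz1, Sting1 and the non-coding LOC102548237, named after their values were seen. Each of these 4 had dyads with fewer than 20 calls in a library.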
